A study of Mus musculus with 11 samples.

Results

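The Fam19a genes, now named Tafa1 to Tafa5, encode small secreted proteins of neurons that are distantly related to CC chemokines. They were followed here in NSC34, a motor neuron-like mouse line made by fusing neuroblastoma with spinal cord cells, after depletion of Tardbp, which encodes the RNA-binding protein TDP-43. The family was taken up because of Fam19a1, which was chosen by its large fall in the Tardbp-depleted cells, and the other 4 genes came with the family name. All 5 members were measured, among 15803 genes in all, by 42 of the 194293 probe sets (groups of short probes against a part of a transcript). A probe set was counted for a gene only where the platform annotation gave it exactly that 1 symbol.

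Whole-transcript arrays were hybridised with RNA of 4 NSC34 samples labelled shTardbp knockdown, 4 labelled shGFP and 3 labelled shLuciferase. All 11 came from NSC34 cells transfected by lipofectamine with a pSUPERIOR hairpin vector, from which puromycin-resistant stable clones were isolated. The shTardbp vector carried a hairpin against Tardbp, and the control vectors carried hairpins against GFP and against Renilla luciferase. Whether a group's arrays came from separate clones or from repeated cultures of 1 clone is not stated, so the p-values rest on the spread among these arrays alone, which may be technical.

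Each TAFA protein has a signal peptide and a conserved pattern of cysteines, and is made mainly in the nervous system. They act on cell surface receptors of several kinds, among them G protein-coupled receptors, and TAFA1 to TAFA4 also join neurexins in the secretory pathway of neurons. TDP-43 binds UG-rich RNA and regulates splicing and transcript levels, also of genes with long introns, and is lost from the nucleus of motor neurons in amyotrophic lateral sclerosis.

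The hairpin that defines the depleted cells is shown first, as the labels give its target in Tardbp. Then follow the promoter windows of Fam19a1 and of its neighbour Fam19a4, the pair of members that lie next to each other on chromosome 6, from 250 bases before to 50 bases after the start of the gene, with CG pairs in capitals. They are shown because Fam19a1 was far lower in the depleted cells while Fam19a4 did not pass the test, as described further on. The windows are those of RefSeq on GRCm38.p6, where the genes are called Tafa1 and Tafa4.
Tardbp hairpin target (5′ to 3′): tctaagcaaagccccagacgagcct
Fam19a1 (Tafa1), chr6:96112904-96113203, plus strand: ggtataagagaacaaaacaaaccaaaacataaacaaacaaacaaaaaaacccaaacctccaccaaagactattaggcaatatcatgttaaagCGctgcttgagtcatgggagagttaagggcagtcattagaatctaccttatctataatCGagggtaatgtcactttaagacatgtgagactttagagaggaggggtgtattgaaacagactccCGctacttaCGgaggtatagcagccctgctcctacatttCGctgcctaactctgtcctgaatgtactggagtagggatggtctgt
Fam19a4 (Tafa4), chr6:97060362-97060661, minus strand: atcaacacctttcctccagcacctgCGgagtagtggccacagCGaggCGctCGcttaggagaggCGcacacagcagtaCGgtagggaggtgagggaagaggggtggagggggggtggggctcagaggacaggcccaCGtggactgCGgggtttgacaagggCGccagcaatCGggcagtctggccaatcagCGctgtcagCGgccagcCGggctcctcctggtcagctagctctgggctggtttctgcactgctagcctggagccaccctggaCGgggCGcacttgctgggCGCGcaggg

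The Fam19a1 window held 5 CG pairs and 42.0% G and C, and the Fam19a4 window 17 CG pairs and 66.7%. Over all 32851 windows of this length the median was 52.7%. The other members lay on both sides of it, with 41.7% for Fam19a2 on chromosome 10, 53.7% for Fam19a3 on chromosome 3, and 83.7% and 81.0% for the windows of Fam19a5 on chromosome 15, so all 5 members matched and gave 6 windows. Motifs were looked for on both strands. TATAAA is in none of the 6 windows and in 13.6% of all windows, GTGTGT is in none and in 17.4%, and GGGCGG is 4 times in each window of Fam19a5, in none of the other 4 and in 35.7% of all windows. Most of each window lies before the start of the gene, so the GTGTGT count does not bear on UG-rich stretches in the transcripts.

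The values are log2 expression values. A gene value is the mean over its probe sets on 1 array, and a log2 change is the shTardbp mean minus the mean of the shGFP mean and the shLuciferase mean unless another contrast is named. Array medians ran from 6.82 to 6.92 and the 25th percentile of all probe sets on an array from 4.46 to 4.57, which served as a mark of low values since the files hold no detection calls. Tardbp itself was at 8.80 to 9.0 in shTardbp, 9.08 to 9.42 in shGFP and 9.20 to 9.38 in shLuciferase (log2 change -0.40, SE 0.0722, limma adjusted p = 0.000713; exact two-sided permutation p = 0.00303, the smallest that 330 splits can give). Tardbp was thus at 75.8% of the control signal, a 1.32-fold difference, and the arrays do not measure TDP-43 protein. The cells called depleted are those with the Tardbp hairpin. Of 15 motor neuron and neuronal markers 12 lay above the 25th percentile on every array. Chat, the acetylcholine-synthesising enzyme, the choline transporter gene Slc5a7 and the motor neuron factor Mnx1 did not on any. In the labels each array has a code, whose first letter is P for shTardbp 1 to 4 and shLuciferase 4 and C for the remaining 6, with no meaning given. With this letter in the model the Tardbp change was -0.29 and did not pass (adjusted p = 0.173).

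Fam19a1 was lower on all 4 arrays of depleted cells than on every control array. The encoded protein, TAFA1, is a ligand of the receptor GPR1 and is made by neurons of the brain. The gene value of Fam19a1 was 4.85, 4.99, 4.72 and 4.79 in shTardbp 1 to 4. It was 6.95, 7.16, 7.29 and 7.26 in shGFP 1, 2, 3 and 5, and 7.26, 7.40 and 7.73 in shLuciferase 1, 2 and 4. The depleted arrays sat far under the lowest control, and the ranges of the controls overlapped. The mean was 4.84 ± 0.117 in shTardbp (SD over n = 4 arrays), against 7.16 ± 0.152 (n = 4) for shGFP and 7.46 ± 0.240 (n = 3) for shLuciferase.

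The log2 change of Fam19a1 was -2.48 (SE 0.0939), or 18% of the control signal, a 5.57-fold difference. It was the second lowest of all 15803 log2 changes, which is how the gene came to be chosen, so the difference is given without a test. Against shGFP alone the change was -2.33 (19.9% of that control), and against shLuciferase alone -2.63 (16.2%). These contrasts share the shTardbp arrays. With the median of the probe sets in place of their mean the change was -1.81. In bulk RNA, fewer cells with the transcript and less transcript per cell cannot be told apart. Over all genes 9.82% had their 4 shTardbp values below all 7 control values, as Fam19a1 had.

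Within the arrays whose code begins with P the picture was the same in kind. The 4 shTardbp arrays, at 4.72 to 4.99, stood against 7.73 in shLuciferase 4, a difference of -2.89 with 1 control array and no replicate check. Among the control arrays shLuciferase 4 had the highest Fam19a1 value, and shLuciferase 1 and 2 averaged 7.33. The controls did not differ past the threshold of 0.05 in a contrast that played no part in the choice. Fam19a1 in shGFP minus shLuciferase was -0.30 (SE 0.114, 95% interval -0.55 to -0.06, limma adjusted p = 0.120 over all genes), where 11.1% of genes passed. So the order of the levels was shTardbp, shGFP and shLuciferase, with the last pair of neighbours not separated by the adjusted test.

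**Figure D1:**
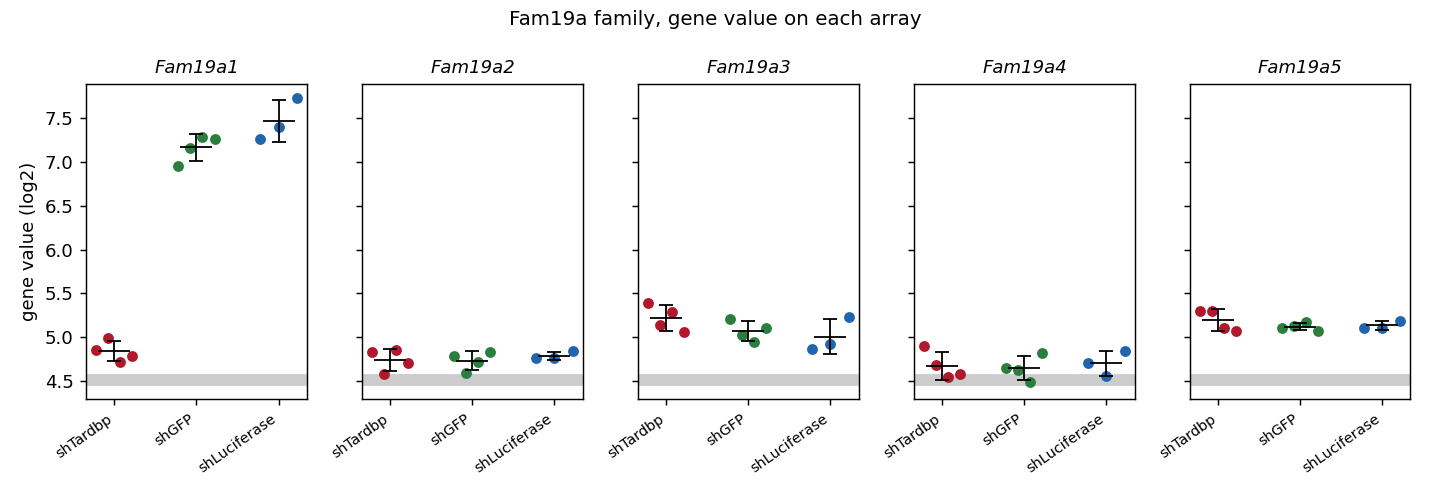
Gene values (log2) of the 5 Fam19a members on each array, in 1 panel per gene, with shTardbp (n = 4) left, then shGFP (n = 4) and shLuciferase (n = 3); points are arrays, long bars means, whiskers SD, and the grey band is the range of the arrays' 25th percentiles (4.46 to 4.57). Fam19a1 lies at 4.72 to 4.99 in shTardbp and at 6.95 to 7.73 in the controls, and in the other panels the groups overlap.

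Every one of the 5 Fam19a1 probe sets was lower in shTardbp, by log2 differences from -3.54 to -1.62. Probe set 5571444, with the largest difference, was at 4.81, 5.68, 5.32 and 5.44 in shTardbp 1 to 4, against 8.29 to 8.96 in shGFP and 8.92 to 9.29 in shLuciferase. Probe set 5263850 was at 5.41, 6.37, 5.82 and 6.16 in shTardbp, against 8.39 to 8.77 in shGFP and 8.60 to 9.31 in shLuciferase (difference -2.82). In both, shTardbp 1 had the lowest value and every control was far above. Probe set 4861632 had the smallest difference, -1.62, with 5.27, 5.01, 4.43 and 4.51 in shTardbp, 5.62 to 6.74 in shGFP and 6.21 to 6.86 in shLuciferase. Here the gap between the groups was narrow, from 5.27 in shTardbp 1 to 5.62 in shGFP 1.

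The remaining probe sets lay near the low end of the arrays in the depleted cells. Probe set 4447159 was at 4.05 to 4.68 in shTardbp, against 6.24 to 6.51 in shGFP and 6.23 to 6.52 in shLuciferase (difference -1.95). Probe set 5286009 was at 3.36 to 4.07 in shTardbp, against 5.56 to 6.09 in shGFP and 6.07 to 6.68 in shLuciferase (difference -2.46). Its 4 shTardbp values were all under the 25th percentile of their arrays, as were 2 of those of 4447159 and 1 of those of 4861632, so at these probe sets a part of the depleted arrays gives no sure signal, and the full size of the difference is not known. All 5 probe sets had their 4 shTardbp values below the 7 control values, which held for 5.57% of all probe sets. Between the controls the differences of the 5 probe sets ran from -0.46 to -0.01, and none passed in the fit over all probe sets (limma adjusted p from 0.332 to 0.988), where 2.62% of probe sets did.

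**Figure D2:**
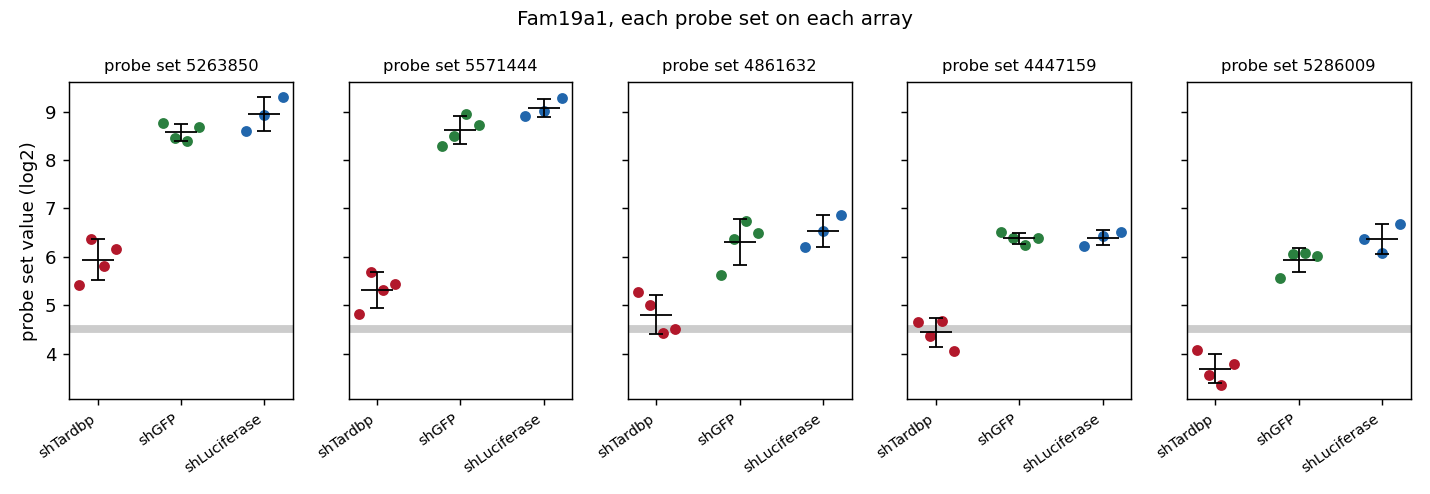
Values (log2) of the 5 Fam19a1 probe sets on each array, 1 panel per probe set, with shTardbp left of shGFP and shLuciferase; points are arrays, long bars means, whiskers SD (n = 4, 4 and 3), and the grey band is the range of the arrays' 25th percentiles. In each panel the 4 shTardbp points lie under all 7 control points, and for probe set 5286009 they also lie under the band.

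None of the other 4 members passed the test over all genes in shTardbp against both controls, where 30.5% of genes passed, 13.5% higher and 17.0% lower. Fam19a2, whose product is a factor for neuron survival in mice, was at 4.83, 4.58, 4.85 and 4.71 in shTardbp 1 to 4. It was at 4.59 to 4.83 in shGFP and 4.76 to 4.84 in shLuciferase. The groups overlapped fully, with a log2 change of -0.02 (SE 0.0685, 95% interval -0.16 to 0.13, limma adjusted p = 0.912). The changes against the single controls were 0.01 against shGFP (adjusted p = 0.958) and -0.04 against shLuciferase (adjusted p = 0.812).

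Fam19a4 lies beside Fam19a1 in the genome, and its product TAFA4 is known as a protein of touch-sensing C fibre neurons that acts on pain. The gene value was 4.90, 4.68, 4.54 and 4.58 in shTardbp 1 to 4. It was 4.49 to 4.82 in shGFP and 4.56 to 4.84 in shLuciferase. The group means were 4.67 ± 0.162 in shTardbp (n = 4), 4.65 ± 0.134 in shGFP (n = 4) and 4.70 ± 0.140 in shLuciferase (n = 3). Its log2 change was 0.00 (95% interval -0.18 to 0.18, limma adjusted p = 0.998; adjusted p = 0.897 against shGFP and 0.919 against shLuciferase).

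Fam19a5 encodes a protein of brain and vessels for which the receptors S1PR2 and FPR2 and the synaptic adhesion protein LRRC4B have been described. Its gene value was 5.30, 5.30, 5.11 and 5.07 in shTardbp, 5.07 to 5.17 in shGFP and 5.10 to 5.19 in shLuciferase. The upper pair of depleted arrays lay above every control and the lower pair among them. The log2 change was 0.06 (SE 0.0617, 95% interval -0.07 to 0.20, limma adjusted p = 0.534).

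Fam19a3, whose product acts on microglia in mice, was the member nearest to a rise. Its gene value was 5.39, 5.14, 5.29 and 5.06 in shTardbp 1 to 4. It was 5.21, 5.02, 4.95 and 5.11 in shGFP 1, 2, 3 and 5, and 4.87, 4.92 and 5.23 in shLuciferase 1, 2 and 4. The shTardbp arrays thus reached both higher than and into the range of the controls, and shLuciferase 4 stood above its own group. The log2 change was 0.18 (SE 0.0859, 95% interval -0.01 to 0.36, limma adjusted p = 0.152; exact two-sided permutation of 4 against 7 arrays p = 0.0879).

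The Fam19a3 call depended on the processing. Without shLuciferase 4 the change was 0.23 and passed (adjusted p = 0.0365), and with array weights it was 0.24 and passed (adjusted p = 0.0150). Within the arrays coded P, the shTardbp mean of 5.22 stood against 5.23 in shLuciferase 4, and with the code letter in the model the change was -0.10 (adjusted p = 0.684). Across the family shLuciferase 4 had the highest value of its group for all 5 members, and its 25th percentile (4.56) was above those of shLuciferase 1 and 2 (4.48 and 4.46). The part of these array differences in the result was not tested.

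Against each control alone none of the 4 passed either. The adjusted p-values ran from 0.333 to 0.958 against shGFP, where 27.9% of genes passed, and from 0.178 to 0.919 against shLuciferase, where 26.1% passed. Between the controls Fam19a2 to Fam19a5 differed by -0.05, 0.06, -0.05 and -0.02 in shGFP minus shLuciferase (limma adjusted p from 0.83 to 0.953).

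Of the 37 probe sets of Fam19a2 to Fam19a5, 22 were higher and 15 lower in shTardbp, and 2 passed in the fit over all probe sets, where 15.4% passed. Probe set 4480363 of Fam19a2 was at 5.98, 5.73, 5.88 and 5.78 in shTardbp, against 5.99 to 6.30 in shGFP and 6.05 to 6.23 in shLuciferase. It fell by 0.32 on the log2 scale (limma adjusted p = 0.0375), with shTardbp 1 just under shGFP 5. Probe set 4686982 of Fam19a5 was at 5.53, 5.57, 5.54 and 5.29 in shTardbp, 5.32, 4.74, 4.81 and 4.81 in shGFP 1, 2, 3 and 5, and 4.77, 4.85 and 5.18 in shLuciferase 1, 2 and 4. It rose by 0.55 (limma adjusted p = 0.0141), although shTardbp 4 lay just under shGFP 1. With the code letter in the model none of the 37 passed, and with each array centred on its median 1 did. No probe set of the 4 genes had all shTardbp values above all controls (5.34% of all probe sets did) and 1, 4480363, had them below.

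Within Fam19a2, Fam19a4 and Fam19a5 the probe sets differed in direction. In Fam19a2 the 13 differences ran from -0.32 to 0.30 (8 lower, 5 higher), in Fam19a4 the 6 ran from -0.19 to 0.19, and in Fam19a5 the 10 ran from -0.33 to 0.55. In Fam19a3 all 8 were higher, from 0.05 to 0.50, and none passed. The largest differences, 0.50 at 4950414 and 0.26 at 5552101, were at probe sets under the 25th percentile on all 11 arrays. With low probe sets left out the Fam19a3 gene change was 0.12 (limma adjusted p = 0.405). Fam19a3 probe set 4526008 was at 8.71 to 9.10 in shTardbp, 8.69 to 9.17 in shGFP and 8.81 to 8.90 in shLuciferase. Between the controls 1 of the 37 passed. Probe set 4922637 of Fam19a2 was 0.50 lower in shGFP than in shLuciferase (log2, limma adjusted p = 0.0346), with 5.14 to 5.46 in shGFP and 5.69 to 5.90 in shLuciferase. Of the 37, 11 lay under the 25th percentile on all 11 arrays and 18 lay above it on all, so a part of the family's probe sets is near the low end throughout.

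**Figure D3:**
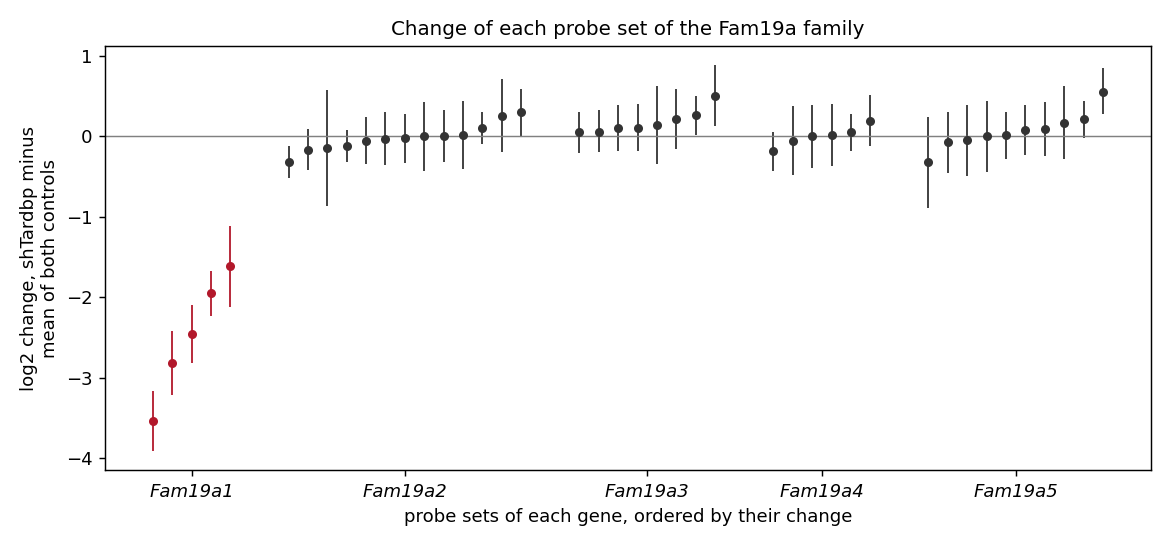
Log2 change of each probe set of the family (shTardbp minus the average of both control means), grouped by gene and ordered by change; points are estimates and bars 95% intervals from limma, from 4, 4 and 3 arrays. The 5 Fam19a1 probe sets lie between -3.54 and -1.62, and the 37 of the other members between -0.33 and 0.55.

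Fam19a1 and Fam19a4 were then set among the genes that flank them. Of the 5 measured genes on each side of Fam19a1, 4 fell, 1 rose and 5 did not pass, with a median log2 change of 0.02, against 0.0072 over all genes, of which 17.0% fell and 13.5% rose. Frmd4b, which encodes a FERM domain scaffold protein, was at 7.20, 7.19, 7.29 and 7.64 in shTardbp, 8.52 to 9.06 in shGFP and 8.51 to 8.65 in shLuciferase. It fell 2.62-fold (log2 -1.39, SE 0.107, limma adjusted p = 5.53e-07). Lrig1, a membrane protein that restrains receptor tyrosine kinases, was at 6.40, 6.19, 6.15 and 6.48 in shTardbp, 7.26 to 7.85 in shGFP and 6.70 to 6.96 in shLuciferase. It fell by 0.94 (SE 0.111, adjusted p = 2.25e-05), and the size depended on the control, being -1.37 against shGFP and -0.51 against shLuciferase.

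Smaller changes were seen in 2 further genes. Kbtbd8, an adaptor of a ubiquitin ligase on the near side of Fam19a1, fell by 0.48 (adjusted p = 1.13e-05, but 0.170 with the median of the probe sets). Slc25a26, the mitochondrial carrier of S-adenosylmethionine, fell by 0.17 (adjusted p = 0.0260), a call lost with the code letter (0.667), with the replicate block (0.0516), with the median of the probe sets (0.100) and without any 1 of shTardbp 1, shTardbp 3, shLuciferase 1 and shLuciferase 2 (0.0558 to 0.0830). Against shGFP alone Slc25a26 did not pass (limma adjusted p = 0.110). Mitf, a transcription factor of the melanocyte lineage, rose 1.54-fold (log2 0.62, limma adjusted p = 7.78e-06). It was at 8.65 to 8.83 in shTardbp, 8.26 to 8.43 in shGFP and 7.81 to 7.99 in shLuciferase. The rise was 0.40 against shGFP and 0.84 against shLuciferase, both past the threshold, and the controls differed by 0.44 (limma adjusted p = 0.00243). The changes of Magi1 (0.09), A130022J15Rik, now named Eogt (0.04), Uba3 (0.08) and the noncoding 9530026P05Rik (0.50, adjusted p = 0.116) did not pass, nor did that of Fam19a4. That of 9530026P05Rik, which lay under the 25th percentile on 10 arrays, passed with array weights (0.75, adjusted p = 0.0266), without shTardbp 1 (0.68, 0.0442) and without shTardbp 4 (0.67, 0.0444), and was 0.19 without shTardbp 3. All 4 shTardbp values lay below all controls for each of the 4 neighbours that fell, as in 9.82% of all genes. Above all controls they lay for Mitf, as in 8.45% of all genes.

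Around the other members the counts were 3 lower and 2 higher of 10 for Fam19a2, 1 lower and 3 higher of 10 for Fam19a3, and 0 lower and 1 higher of 10 for Fam19a5. Around Fam19a4 they were 5 lower and 1 higher of 10. The lower genes were Fam19a1, chosen for its fall, and Slc25a26, Lrig1, Kbtbd8 and Frmd4b, and the higher was Mitf. Apart from Fam19a1 these are the genes already counted around Fam19a1, so the count for Fam19a4 is not a separate result. Beside the 17.0% of all genes that fell, these counts are given as a description of small lists.

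**Figure D4:**
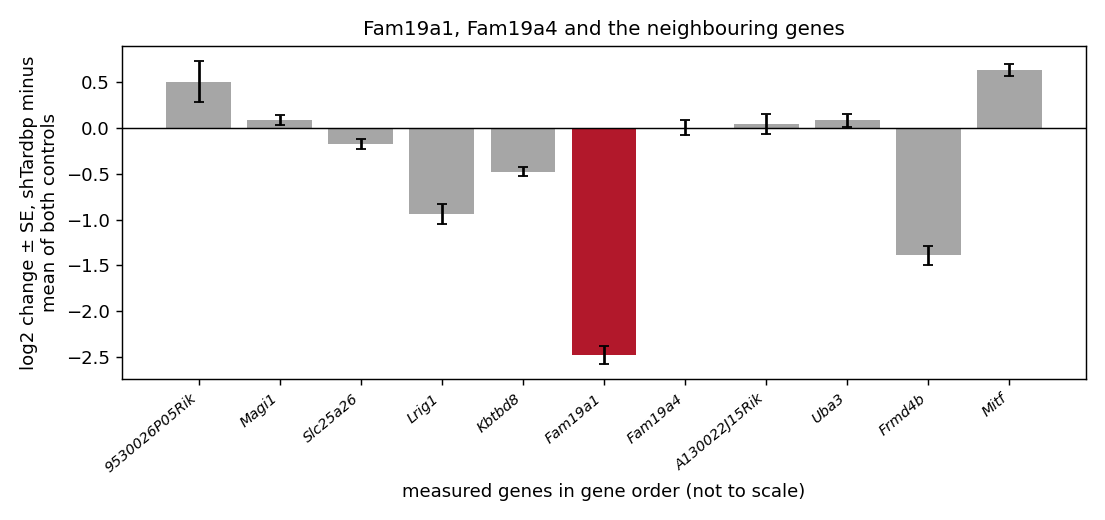
Log2 change (shTardbp minus the average of both control means) with SE for Fam19a1 and Fam19a4 (red) and the measured genes around them (grey), in gene order and not to scale, from 4 shTardbp, 4 shGFP and 3 shLuciferase arrays. Fam19a1 is at -2.48, Fam19a4 beside it at 0.00, Frmd4b at -1.39, Lrig1 at -0.94 and Mitf at 0.62.

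The receptors and partners described for TAFA proteins came next. Of 9 measured genes 2 rose and none fell (median log2 change 0.05), where 13.5% of all genes rose and 17.0% fell, so the count is near the share of all genes. Of the 9, 5 had a mean below the 25th percentile. Gpr1, the receptor of TAFA1, was at 3.42 to 3.74 in shTardbp, 3.49 to 3.71 in shGFP and 3.53 to 3.71 in shLuciferase, under the 25th percentile on all 11 arrays (log2 change -0.04, adjusted p = 0.757). Fpr1, the formyl peptide receptor on which TAFA4 acts, was likewise under it on all 11 arrays (0.04, adjusted p = 0.831). Thus neither receptor was shown to be above background in any group. Fpr2, named for TAFA5, lay under it on 9 arrays (0.03, adjusted p = 0.954).

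S1pr2, a sphingosine phosphate receptor also named for TAFA5, was at 6.39 to 6.68 in shTardbp, 6.34 to 6.62 in shGFP and 6.25 to 6.53 in shLuciferase (0.12, adjusted p = 0.344). Lrrc4b, the postsynaptic adhesion protein that binds TAFA5, was at 7.17, 7.20, 7.03 and 7.05 in shTardbp 1 to 4, against 6.69 to 6.90 in shGFP and 6.77 to 6.95 in shLuciferase. It rose 1.21-fold (log2 0.27, SE 0.0657, limma adjusted p = 0.00531), with all depleted arrays above all controls. The call was lost with the median of the probe sets, at a larger change of 0.41 (adjusted p = 0.125).

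Among the neurexins, presynaptic adhesion proteins, Nrxn2 was at 8.27, 8.63, 8.36 and 8.17 in shTardbp, 7.74 to 8.0 in shGFP and 7.98 to 8.37 in shLuciferase. It rose by 0.32 (SE 0.0969, adjusted p = 0.0211), but the change was 0.47 against shGFP (adjusted p = 0.00464) and 0.17 against shLuciferase (adjusted p = 0.364). The call was also lost without shTardbp 2 (0.0850), without shTardbp 3 (0.0502), without shLuciferase 1 (0.0501) and with the code letter in the model (0.763), so that the list then held 1 gene past the threshold. Nrxn3 lay under the 25th percentile on all 11 arrays (0.12, adjusted p = 0.183). Rarres2, which encodes chemerin, the other ligand of GPR1, and the chemerin receptor gene Cmklr1 had changes of 0.05 and -0.17 (adjusted p = 0.772 and 0.190).

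**Figure D5:**
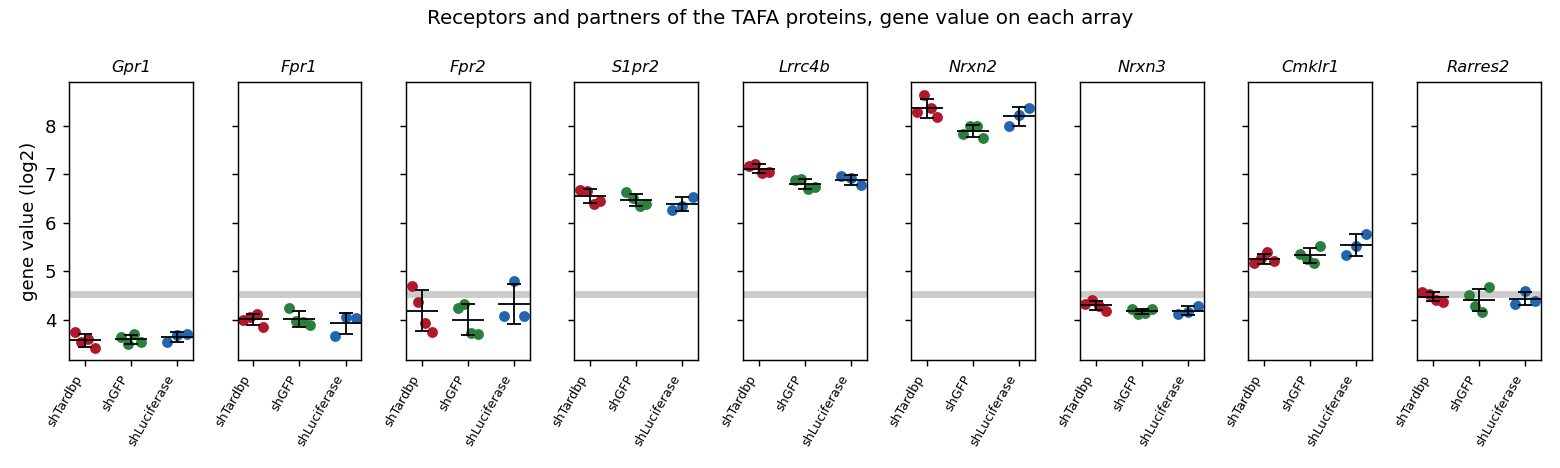
Gene values (log2) of the 9 measured receptors and partners on each array, 1 panel per gene, with shTardbp left of shGFP and shLuciferase; points are arrays, long bars means, whiskers SD (n = 4, 4 and 3), and the grey band is the range of the arrays' 25th percentiles. Lrrc4b is at 7.03 to 7.20 in shTardbp and at 6.69 to 6.95 in the controls, and Gpr1 and Fpr1 lie under the band in every group.

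CC chemokines, the distant relatives of the family, were mostly low. Of 18 measured, 12 had a mean below the 25th percentile, 2 rose, none fell and 16 did not pass (median log2 change 0.04). The risen share was near the 13.5% of all genes, of which 17% fell. Ccl7, an attractant of monocytes, was at 7.45, 7.20, 7.37 and 7.27 in shTardbp, 5.55 to 5.82 in shGFP and 6.18 to 6.33 in shLuciferase. It rose 2.53-fold (log2 1.34, SE 0.0698, limma adjusted p = 1.76e-08), against both controls. Ccl2, with the same kind of target cells, rose by 0.44 (adjusted p = 0.000113), with a change of 0.66 against shGFP and of 0.21 against shLuciferase (adjusted p = 0.0557). Ccl25 (-0.26, adjusted p = 0.0930) and Ccl9 (0.17, adjusted p = 0.135) came next. Ccl25 passed with the code letter (-0.66, adjusted p = 0.0170), with the replicate block (-0.30, 0.00964), without shTardbp 4 (-0.33, 0.0460) and without shLuciferase 1 (-0.33, 0.0180). Ccl9 passed with low probe sets left out (0.42, adjusted p = 0.0442), with array weights (0.21, 0.0394) and without shLuciferase 4 (0.22, 0.0459). Without shLuciferase 1 the list held 4 genes past the threshold.

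Of 15 other secreted neuronal factors 3 fell, none rose and 12 did not pass (median -0.03), with 17.0% of all genes lower and 13.5% higher. Nrn1, a membrane-anchored neurite growth factor, was at 10.29, 10.62, 10.52 and 10.44 in shTardbp, 11.48 to 11.60 in shGFP and 11.64 to 11.72 in shLuciferase. It fell 2.22-fold (log2 -1.15, SE 0.0655, limma adjusted p = 4.11e-08), with the groups far apart. Ptn, the heparin-binding growth factor pleiotrophin, fell by 0.29 (adjusted p = 0.00482) and the membrane-bound chemokine Cx3cl1 by 0.35 (adjusted p = 0.00715). Both calls were lost with the code letter in the model (0.485 and 0.470), and that of Cx3cl1 with the median of the probe sets (0.222). Clcf1, a cytokine of neuron survival, was at 0.28 (adjusted p = 0.106), and passed with the median of the probe sets (0.45, adjusted p = 0.0204) and without shGFP 1 (0.33, 0.0354).

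Markers of cell types were read beside these lists. Of the 15 motor neuron and neuronal markers 2 rose, Slc18a3 (0.63) and Isl2 (0.26), and none fell, beside 13.5% and 17.0% of all genes. Against shGFP alone 5 rose and 2 fell, beside 1960 and 2456 of all 15803 genes. The 2 that fell were Isl1, by 0.51, and Gap43, by 0.42 (limma adjusted p = 0.00429 and 0.00101). With shLuciferase as the only control 3 rose and none fell, beside 1861 and 2259 of all 15803 genes. Isl1 was among these 3 (0.60, adjusted p = 0.00282), and Gap43 did not pass (0.17, 0.188). Both genes set the controls apart, with shGFP minus shLuciferase at 1.11 for Isl1 (limma adjusted p = 6.73e-05) and 0.59 for Gap43 (0.000487). Their falls thus depended on the control, and the changes against both were 0.04 and -0.13 (adjusted p = 0.837 and 0.211). The count against both controls was 4 without shTardbp 1, 1 without shTardbp 4 and 0 with the code letter in the model. The mean over the list was 8.41 to 8.62 in shTardbp, 8.35 to 8.44 in shGFP and 8.38 to 8.41 in shLuciferase. Of 8 markers of the C fibre mechanoreceptors in which TAFA4 is known, 3 rose and none fell, namely Th (0.26), P2rx3 (0.39) and Cacna1h (0.33), where 13.5% of all genes rose, and 1 passed with the code letter in the model. Th did not pass against shLuciferase (adjusted p = 0.162), nor Cacna1h against shGFP (0.0952). P2rx3 was 0.95 higher than in shLuciferase but changed by -0.18 against shGFP (adjusted p = 0.100), and Scn10a and Scn11a lay under the 25th percentile on all 11 arrays.

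Of 24 markers of astrocytes, oligodendrocytes and Schwann cells, microglia and fibroblasts 2 passed with the code letter in the model, where 2509 of 15803 genes passed. Without the letter 4 passed, where 30.5% of all genes passed. Mbp (0.24) and Tmem119 (0.27) rose, both overlapping the controls and Tmem119 not passing against shLuciferase (0.16, adjusted p = 0.375), and the fibroblast markers Dcn (-1.61) and Pdgfra (-0.92) fell. Dcn was at 5.23 to 5.60 in shTardbp, 7.37 to 7.76 in shGFP and 6.30 to 6.42 in shLuciferase. The mean over the 6 fibroblast markers was 5.06 to 5.16 in shTardbp, 5.53 to 5.64 in shGFP and 5.49 to 5.55 in shLuciferase, with Lum under the 25th percentile on all 11 arrays and Col1a1, Col1a2 and Col3a1 not past the threshold. The part of Dcn and Pdgfra in the Fam19a1 difference was not tested. The lists of the other cells held 0 of 6 astrocyte genes, 1 of 5 of oligodendrocytes and Schwann cells and 1 of 7 of microglia past the threshold. Gja1, Slc1a3, Aif1, Itgam, Csf1r and Ptprc lay under the 25th percentile on all 11 arrays. Above it on every array lay 4 of the 5 oligodendrocyte and Schwann cell markers, 1 astrocyte, 2 microglia and 5 fibroblast markers. Pmp22, of the Schwann cell list, was high, at 11.53 to 11.64 in shTardbp and 11.34 to 11.64 in the controls.

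The 5 genes whose pattern over the 11 arrays was most like that of Fam19a1 were found by the root mean square difference of gene values after each gene was centred on its own mean. Gpx8, an endoplasmic reticulum peroxidase, was nearest, at 0.230 log2 units. It had 4.35 to 4.48 in shTardbp, 6.64 to 7.15 in shGFP and 6.63 to 6.84 in shLuciferase. The membrane metalloproteinase gene Mmp16 followed at 0.241, with 3.93 to 4.08 in shTardbp, 5.85 to 6.15 in shGFP and 6.11 to 6.23 in shLuciferase. Lrrc17, a secreted protein with leucine-rich repeats, was at 0.283, A030004J04Rik (now Prr9) at 0.321 and A730017C20Rik (now Minar2) at 0.405. In all 5 the shTardbp arrays lay below the controls, as the measure requires. No other member spanned more than 1 log2 unit over the arrays (0.23 to 0.52, against 3.01 for Fam19a1), so none was matched.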

How the data were processed

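RNA of 11 NSC34 samples was amplified, biotin-labelled and hybridised to Affymetrix arrays, per the labels' protocols. The deposited values are log2 expression values per probe set, for which Partek and RMA (no version given) are named, per the submitters' processing notes. How the background and normalization were set, and which genome build the probe sets follow, is not given in the sources used here. All value columns were used. Of the probe sets, 179496 had 1 symbol, 1328 several and 13469 none.

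Gene values were means over probe sets with 1 symbol. The 3 groups were fitted in a linear model over all 15803 genes, and again over all 194293 probe sets, with limma 3.58.1 in R 4.3.3 (lmFit, eBayes), with no filter and no detection calls, with the Benjamini-Hochberg adjustment across the whole table. SE and 95% intervals are from that model. The precision is limited by the number of arrays. The fit was tested on simulated data. Of the gene symbols, 13727 are current in the RefSeq table of GRCm38.p6 and 2039 matched as older ones; the table served for names and gene order only, since the build of the probe sets is not stated.

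The members, the lists (receptors and partners, CC chemokines, other secreted neuronal factors, markers of neurons, of C fibre mechanoreceptors and of other cells) and the naming rule were chosen with earlier results of these data known. The rule named Tardbp, the members, all receptors and partners, up to 4 genes of each of the next 2 lists by adjusted p, the 5 measured genes on each side of Fam19a1, and the 5 genes nearest to it in pattern. Markers named singly were chosen after their values were seen. Replicate numbers are shared between groups. Deviations from the group means of same-numbered arrays correlated at 0.116 to 0.201 for the 3 pairs of shTardbp and shGFP, and at -0.056 to 0.263 for the remaining 5 pairs, so the numbers were not taken to pair all arrays. Alternatives were the median of the probe sets, 2 filters on low values, quantile normalization again, centring, array weights, eBayes with a trend, the replicate number or the array code letter in the model, and leaving out each array.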

Additional observations from a re-analysis of the deposited data

Results flagged for a closer look

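Single arrays stood apart from the rest of their group of 4 in 6 of 158 groups looked at (the members, Tardbp, the other named genes and the 42 probe sets), by a gap to the nearest array above Dixon's 95% critical value. Chance alone flags about 1 in 20. Fam19a1 probe set 5286009 was at 5.56 in shGFP 1, under the other arrays of that group. Fam19a5 probe set 4686982, which passed in shTardbp, was low in shTardbp 4 (5.29) and high in shGFP 1 (5.32). Fam19a2 probe set 4898346 was high in shGFP 5 (5.83), and Fam19a2 probe set 5060602 was low in shTardbp 3 (4.09). The neighbouring gene Lrig1 was low in shGFP 1 (7.26).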

How the results depend on the processing

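Fam19a1 was lower in shTardbp under all 19 alternatives that gave it a value, with log2 changes from -2.81 to -1.81 (from -2.53 to -2.41 when 1 array was left out). As the gene was chosen by this fall in the same values, the range describes its size and is no further test. Taking probe set medians gave -1.81 (-1.79 against shGFP and -1.84 against shLuciferase), and with the code letter -2.81 (-2.72 and -2.89). Averaged over all 11 arrays no member exceeded the median level of all genes, so that filter gave the family no value. Fam19a1 averaged 4.84 in shTardbp, 7.16 in shGFP and 7.46 in shLuciferase. The part of its low shTardbp arrays in its place under that level was not tested. Fam19a2, Fam19a4 and Fam19a5 passed in no contrast under any alternative, although the sign of these small changes varied. Fam19a3 passed with array weights (0.24, adjusted p = 0.0150, and 0.30 against shLuciferase, adjusted p = 0.0112) and without shLuciferase 4 (0.23, and 0.32 against shLuciferase); leaving out 1 array gave 0.12 to 0.23, and 0.14 to 0.32 against shLuciferase. Tardbp lost its call with the code letter (-0.29, adjusted p = 0.173).

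With the code letter, 2509 genes passed in shTardbp against both controls (4825 without it) and 1933 against shGFP (4416). The list counts were then 1 of the receptors and partners, 1 of the other secreted factors, 0 of the neuronal, 1 of the mechanoreceptor and 2 of the other cells' markers, and 0 probe sets of Fam19a2 to Fam19a5 passed in shTardbp against both controls and 0 between the controls. Between the controls 1752 genes passed, 962 with the median of the probe sets, 2916 with array weights and 1000 with the replicate block. The replicate block changed no call of a family member (Fam19a1 at -2.48, Fam19a3 at 0.18 with adjusted p = 0.223). Probe set medians left 1 receptor or partner, 3 neighbours of Fam19a1 and 1 neuronal marker past the threshold. Over genes above the median level 3 neighbours and 2 markers of other cells passed. With array weights 6 neuronal markers passed, and with centring 1 probe set of Fam19a2 to Fam19a5. Leaving out 1 array gave 1 to 2 receptors and partners, 2 to 4 CC chemokines and 1 to 4 neuronal markers. In the same fits 4093 to 4984 of all genes passed in shTardbp against both controls, and 4825 with all arrays. Over all 20 alternatives this number ran from 2509 to 5781, and the list counts were not scaled to it. The causes were not tested.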

Other observations

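Lrig genes lie near a pair of members, each as the second measured gene away, Lrig1 from Fam19a1 and Lrig3 from Fam19a2, and Lrig3 was picked out after its values were seen. Lrig3 was at 4.57 to 4.73 in shTardbp, 5.27 to 5.40 in shGFP and 5.36 to 5.53 in shLuciferase, a fall of 0.78 on the log2 scale (SE 0.0590, limma adjusted p = 4.85e-07). Slc16a7, a monocarboxylate transporter gene between Fam19a2 and Lrig3, was at 5.94 to 6.42 in shTardbp, 6.91 to 7.62 in shGFP and 7.14 to 7.67 in shLuciferase (log2 -1.18, SE 0.137, adjusted p = 2.03e-05). Fam19a2 itself, beside them, did not pass (-0.02).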
